A study of Mus musculus with 9 samples.

Results

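The NRF2 and antioxidant genes are 34 genes that encode the stress-responsive transcription factor NRF2, its repressor KEAP1 and the enzymes that make glutathione, reduce peroxides and supply NADPH. They were taken by name from a table of 56860 mouse genes, and all 34 were found there and passed the filter on low counts. They were followed in 9 RNA-seq libraries from spleen cells labelled as CD4+ T cells, 3 from control mice, 3 from CIA mice, and 3 from CIA mice treated with luteolin (LUT), a plant flavone. The series title places the study in RA and in the differentiation of Th17 cells. The labels do not spell out CIA, and strain, age, sex, the luteolin dose and its duration are not given in the sources used here. The CIA and the luteolin groups share the disease state, and no group of control mice with luteolin is among the samples. Whether the 3 libraries of a group come from different mice, from pools or from repeat preparations is not stated, so p-values measure only the spread between these samples, which may be technical.

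NRF2, encoded by Nfe2l2, is held in the cytoplasm by KEAP1, which passes it to a CUL3 ubiquitin ligase for degradation. When electrophiles or oxidants modify cysteines of KEAP1, NRF2 escapes, enters the nucleus, pairs with a small MAF protein such as MAFG and binds antioxidant response elements beside its target genes. BACH1 competes for the same elements, and p62, encoded by Sqstm1, can take KEAP1 away from NRF2. In leukocytes the program supports glutathione and thioredoxin recycling, and it is active in activated lymphocytes and in myeloid cells that make oxidants. Because NRF2 is controlled mainly at the protein level, the mRNA of its targets is a commoner readout than the mRNA of Nfe2l2 itself.

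The core of the antioxidant response element, TGACNNNGC, was searched on both strands of RefSeq promoter windows (build GRCm38.p6) that run from 250 bases before to 50 bases after a start site. Of the 34 genes 29 matched this table by symbol. The core was present in a window of 11 of the 29 genes (37.9%), against 14% of all 27025 genes in the table, and in 11 of 40 member windows (27.5%) against 12.4% of all 32851 windows. The 11 matches are shown because they are the letters found by this search, and none was tested for binding. That of Me1 spans the start site, and those of Pgd and Srxn1 lie wholly after it. Me1, Mgst1, Pgd and Txnrd1 also had a window without a match, which for Pgd and Txnrd1 lay upstream of the match. Whether the Pgd match lies in a promoter was not tested. Elements outside the windows were not searched, so a gene without a match may still have one. Each is printed with up to 16 bases on either side, turned so that the core, in capitals, reads in the same direction.
G6pdx (chrX:74428913-74428953, plus strand): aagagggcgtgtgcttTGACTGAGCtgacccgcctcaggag
Gclm (chr3:122245407-122245447, minus strand): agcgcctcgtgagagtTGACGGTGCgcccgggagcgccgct
Mafg (chr11:120633745-120633785, plus strand): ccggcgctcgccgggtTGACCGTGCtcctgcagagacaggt
Me1 (chr9:86695896-86695936, minus strand): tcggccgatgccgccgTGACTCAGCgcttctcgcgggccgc
Mgst1 (chr6:138140455-138140495, minus strand): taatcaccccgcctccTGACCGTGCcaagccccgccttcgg
Nfe2l2 (chr2:75704879-75704913, minus strand): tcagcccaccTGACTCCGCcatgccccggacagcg
Pgd (chr4:149166055-149166095, minus strand): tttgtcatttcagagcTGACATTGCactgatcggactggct
Prdx1 (chr4:116685450-116685490, minus strand): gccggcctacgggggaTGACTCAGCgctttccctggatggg
Sod1 (chr16:90220690-90220730, minus strand): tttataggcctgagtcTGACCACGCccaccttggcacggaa
Srxn1 (chr2:152105536-152105573, minus strand): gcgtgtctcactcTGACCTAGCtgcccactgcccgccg
Txnrd1 (chr10:82859098-82859138, minus strand): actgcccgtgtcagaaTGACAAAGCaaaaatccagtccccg
The cores of Prdx1 and Me1 are identical, TGACTCAGC, and contain the AP-1 motif TGACTCA, which 5.2% of all windows hold on either strand. Those of Mafg and Mgst1 are also identical, TGACCGTGC.

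Library totals lay between 31234177 and 41815573 counts, and levels below are CPM, counts relative to the TMM-scaled library total. The label of CD4+ T cells was checked against markers. Cd4 itself was at 3.65, 2.46 and 2.66 CPM in control, 82.1, 151 and 150.1 CPM in CIA and 106, 106 and 98.4 CPM with luteolin, so the control libraries were low in the gene that names the cells. The 11 neutrophil markers summed to 2263 to 2607 CPM in control, 7077 to 11870 CPM in CIA and 8577 to 9039 CPM with luteolin, above the 10 T cell markers, at 399 to 455, 574 to 888 and 637 to 678 CPM. All 11 neutrophil markers rose in CIA, and with luteolin 3 rose further and 7 fell. Mean Ngp went from 262 to 2266 CPM and mean Ltf from 291 to 961 CPM. Mean Mmp9 went from 173 to 50.8 CPM and mean S100a9, the largest part of the sum, from 6738 to 3968 CPM. The 10 macrophage markers summed to 186 to 243, 113 to 142 and 478 to 565 CPM, and all 10 were called higher with luteolin than in CIA, where C1qa was at 0.167, 0 and 0 CPM and Mertk at 0.111, 0.0877 and 0.397 CPM. The 8 B cell markers summed to 1991 to 2061 CPM in control, 1589, 928 and 285 CPM in CIA replicates 1, 2 and 3, and 416 to 516 CPM with luteolin. The 9 erythroid markers in the table, which mark a cell type rich in peroxiredoxin 2, catalase and biliverdin reductase B, never summed to more than 6.21 CPM. The 6 cell division genes summed to 1119 to 1147, 327 to 432 and 2050 to 2093 CPM in control, CIA and luteolin. The 6 mast cell and basophil markers summed to 10.7 to 15.4, 67.5 to 128 and 201 to 220.1 CPM, and the 5 plasma cell markers to 256 to 266, 392.2 to 463 and 485 to 537 CPM. Fewer cells of a type and less RNA per cell cannot be told apart in these bulk samples, and the part of cell makeup in the results below was not tested.

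**Figure D1:**
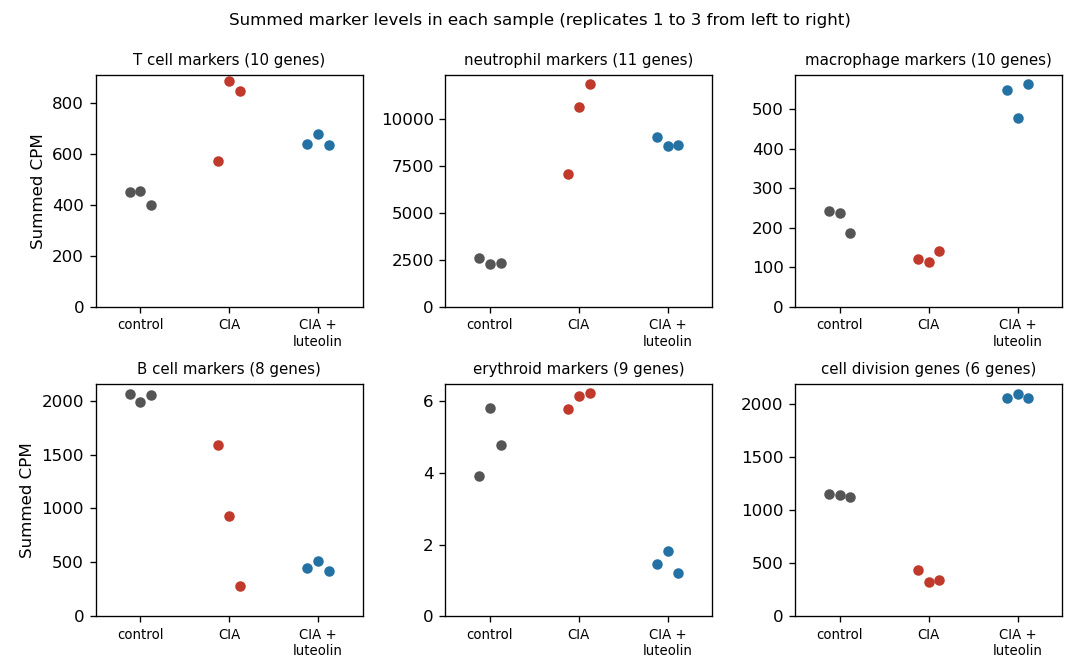
Summed CPM (vertical axes, from 0) of 6 gene lists in each of the 9 libraries, with points for replicates 1 to 3 of control, CIA and CIA with luteolin. Neutrophil markers were at 2263 to 2607 CPM in control and 7077 to 11870 CPM in CIA, macrophage markers were at 478 to 565 CPM with luteolin, and B cell markers differed widely among the CIA replicates.

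Most of the 34 genes were higher in CIA than in control. By edgeR's quasi-likelihood test at an adjusted p of 0.05, 24 rose, 2 fell and 8 did not pass, with a median log2 fold change of 0.61 against -0.01 over all genes tested. Of all 19348 genes tested 51.1% were called in that comparison, 26.6% higher and 24.5% lower, against 70.6% of the members higher and 5.88% lower. With luteolin against CIA, 8 rose, 11 fell and 15 did not pass, a split of 23.5% higher and 32.4% lower beside 23.1% and 24.2% of all genes. The members' share of called genes (55.9%) was near the background of 47.3%. The mean was highest in CIA for 20 of the 34 genes (58.8%, against 35.2% of all genes tested), with luteolin for 12 (35.3%, against 30.8%) and in control for 2 (5.88%, against 34%). The 3 CIA libraries did not overlap the 3 control libraries for 27 members, 25 higher and 2 lower, beside 58.7% of all genes (29.7% higher, 29.1% lower). The luteolin and CIA libraries did not overlap for 20 (58.8%), beside 55.7%. Both comparisons use the CIA libraries, so their values are given side by side and not as independent results.

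**Figure D2:**
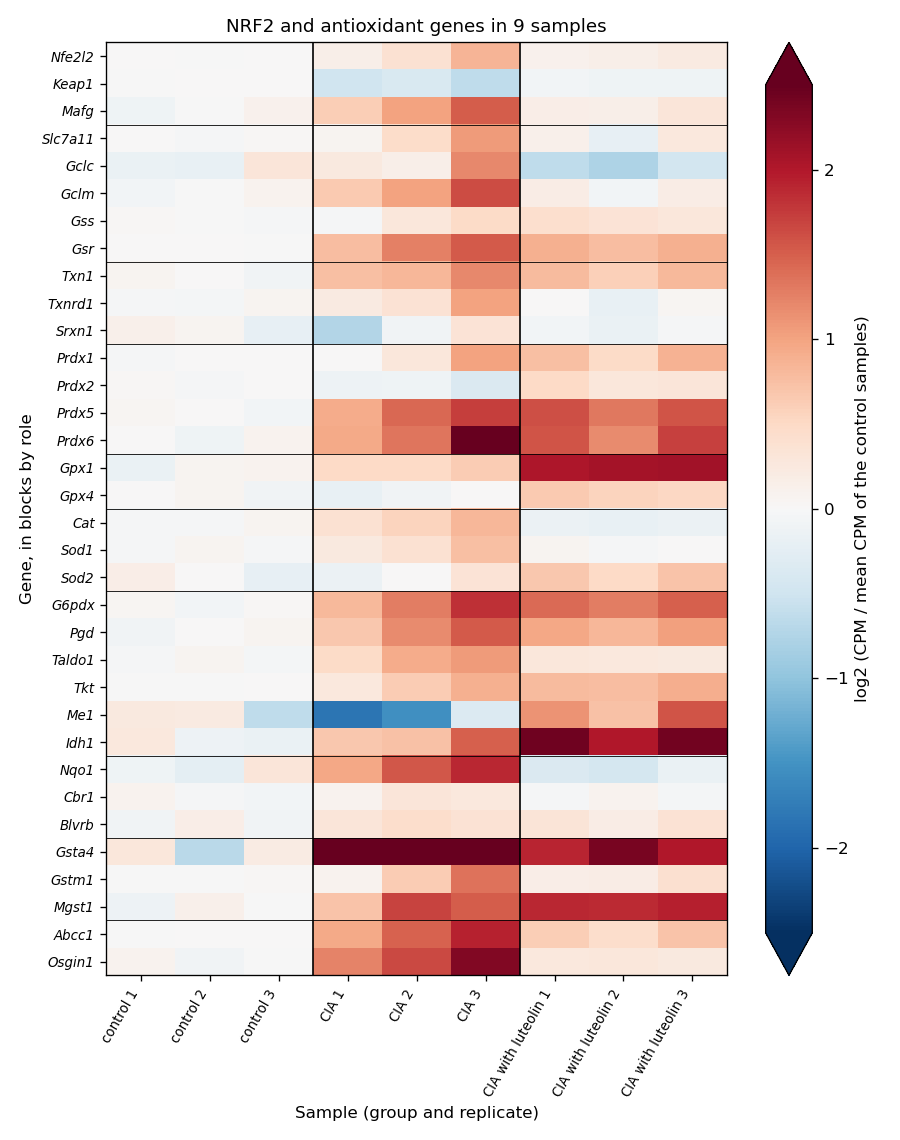
Each cell is log2 of a gene's CPM in 1 library over its mean CPM in the 3 control libraries, for 34 genes (rows, in blocks by role) and 9 libraries (columns), with colours saturating beyond 2.5 in either direction. The red cells of CIA are deepest in replicate 3, and Gpx1, Idh1 and Mgst1 are deep red in all 3 luteolin libraries.

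Nfe2l2 and Mafg rose in CIA and Keap1 fell, and with luteolin Keap1 rose and Mafg fell. Nfe2l2 (chromosome 2, 75505857 to 75534985, build mm39) was at 130.0, 129.7 and 130.2 CPM in control, 143, 168 and 234 CPM in CIA and 139.6, 144 and 152 CPM with luteolin. All 3 CIA libraries lay above all 3 control libraries, but the luteolin libraries overlapped those of CIA. Its log2 fold change was 0.48 ± 0.15 (adjusted p = 0.0179) in CIA against control and -0.32 ± 0.15 (adjusted p = 0.0925) with luteolin against CIA. The first call was lost without control replicate 1, at 0.48 (adjusted p = 0.0531), or without control replicate 2, at 0.48 (adjusted p = 0.0544), and the second comparison passed without CIA replicate 1, at -0.46 (adjusted p = 0.00654). Keap1 (chromosome 9, 21141026 to 21150657), the sensor that marks NRF2 for degradation, was at 42.7, 43.3 and 43.4 CPM in control, 30.7, 33.1 and 27.7 CPM in CIA and 41.3, 39.8 and 39.8 CPM with luteolin. The CIA libraries were the lowest 3 of the 9, and Keap1 fell in CIA (-0.50 ± 0.08, adjusted p = 0.000761) and rose with luteolin (0.40 ± 0.08, adjusted p = 0.00276). A gene on the opposite strand shares 10.9% of the exonic bases of Keap1. Its total count equalled 56.5% of that of Keap1, so part of either count may be shared and the strands cannot be told apart. Mafg, the small MAF partner of NRF2 and itself a known target, was at 134, 142 and 154 CPM in control, 220.0, 287 and 411 CPM in CIA and 161, 158 and 176 CPM with luteolin. Its CIA libraries stood above the other 6, with a rise of 1.10 ± 0.18 on the log2 scale (adjusted p = 0.000676) and a change with luteolin of -0.89 ± 0.18 (adjusted p = 0.00229).

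Partners and competitors of NRF2 that are not members were tested as a list of 10 genes, of which 5 rose and 2 fell in CIA, while 1 rose and 6 fell with luteolin. That is 70% called in each comparison, beside 51.1% and 47.3% of all genes tested. Bach1, the repressor that competes with NRF2, was at 54.0, 54.4 and 56.0 CPM in control, 107, 140.1 and 226 CPM in CIA and 61.7, 63.6 and 64.4 CPM with luteolin, without overlap between CIA and either other group. It rose by 1.53 ± 0.21 in CIA and changed by -1.32 ± 0.21 with luteolin. Maff and Mafk, the other small MAF genes of the list, changed by -1.50 ± 0.23 and -0.93 ± 0.16 with luteolin. Sqstm1, which encodes the KEAP1-binding cargo receptor p62, was at 1254, 1334 and 1279 CPM in control, 1265, 1674 and 2934 CPM in CIA and 1010.1, 925 and 1038 CPM with luteolin and fell by 0.98 ± 0.23 on the log2 scale with luteolin (adjusted p = 0.00576). CIA replicate 1 was within the control range for Sqstm1, and CIA replicate 3 was the highest library.

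**Figure D3:**
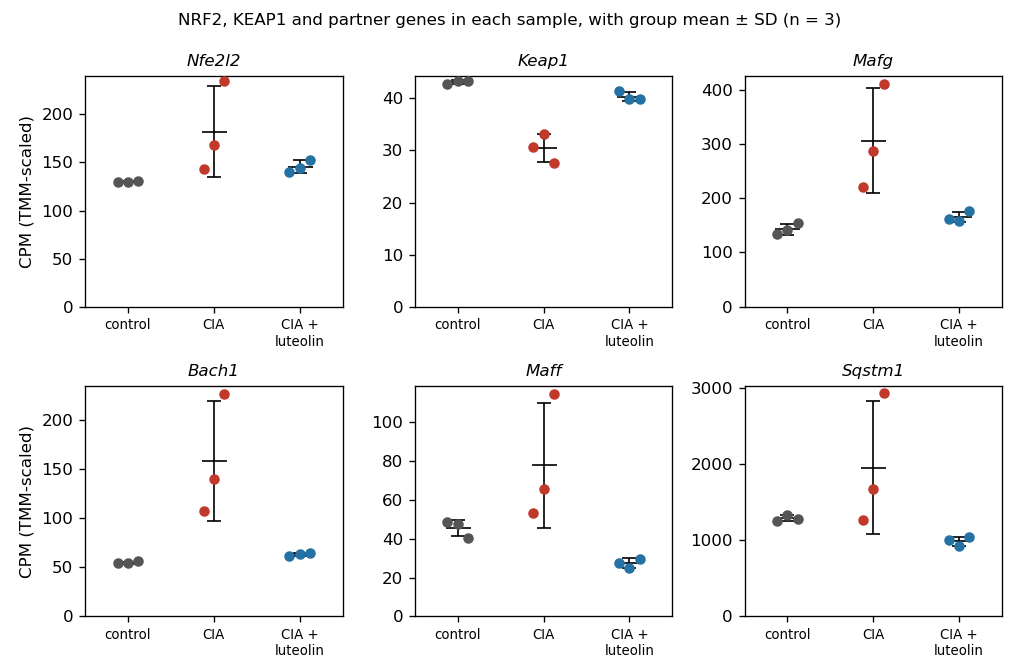
CPM in each library (points, vertical axes from 0) with the group mean ± SD (n = 3) for Nfe2l2, Keap1, Mafg, Bach1, Maff and Sqstm1. Keap1 was lowest in CIA, while the other 5 had their highest library in CIA replicate 3.

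Glutathione is made from cysteine, imported as cystine by the transporter SLC7A11, in the rate-limiting step of glutamate-cysteine ligase (catalytic subunit Gclc, modifier Gclm) and then by glutathione synthetase (Gss), and is kept reduced by glutathione reductase (Gsr). Both ligase subunits were lower with luteolin than in CIA. Gclm (chromosome 3, 122039206 to 122064381) was at 56.1, 58.6 and 62.5 CPM in control, 92.4, 119 and 184 CPM in CIA and 67.5, 56.2 and 67.0 CPM with luteolin. The CIA libraries lay above the other 6, and Gclm rose in CIA (1.16 ± 0.20, adjusted p = 0.000992) and fell with luteolin (-1.05 ± 0.20, adjusted p = 0.00177). Gclc (chromosome 9, 77661817 to 77701767) was at 83.3, 82.8 and 116 CPM in control, 111, 104 and 215 CPM in CIA and 60.7, 54.9 and 68.3 CPM with luteolin. Its CIA libraries overlapped those of control, since control replicate 3 was above CIA replicates 1 and 2, and the change did not pass (0.61 ± 0.25, adjusted p = 0.0645). Without control replicate 3 it passed at 0.79 (adjusted p = 0.0452), as it did without CIA replicate 1 (0.76), without CIA replicate 2 (0.79), by DESeq2 (0.62) and without a filter on low counts (0.60). With luteolin every library was below every other library of the study, and Gclc fell by 1.23 ± 0.25 against CIA (adjusted p = 0.00267).

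Slc7a11 was at 295, 286 and 301 CPM in control, 308, 406 and 611 CPM in CIA and 321, 256 and 351 CPM with luteolin. The rise in CIA (0.59 ± 0.21, adjusted p = 0.0342) was 0.28 (adjusted p = 0.0849) without CIA replicate 3, and the call was also lost without CIA replicate 2 or any control replicate (0.56 to 0.64). With luteolin Slc7a11 did not pass (-0.51 ± 0.21, adjusted p = 0.0608) but did without CIA replicate 1 (-0.71, adjusted p = 0.00326) and with upper-quartile scaling (-0.58, adjusted p = 0.0394). It also passed without a filter on low counts (adjusted p = 3.98e-06), though the log2 fold change of -0.49 was close to that of the main fit. Gsr, which uses NADPH to regenerate glutathione, was at 117, 116 and 115 CPM in control, 198, 277 and 335 CPM in CIA and 214, 199 and 215 CPM with luteolin. Its CIA and luteolin libraries were all above control, with a rise of 1.22 ± 0.15 in CIA (adjusted p = 0.000133), and the difference between luteolin and CIA did not pass (-0.37 ± 0.15, adjusted p = 0.0630; -0.54, adjusted p = 0.000365, without CIA replicate 1). Gss did not pass in either comparison (adjusted p = 0.128 and 0.615), except in CIA without CIA replicate 1 (0.38, adjusted p = 0.0142), and stayed between 8.75 and 12.6 CPM in all 9 libraries.

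Thioredoxin (Txn1) hands electrons from thioredoxin reductase (Txnrd1) to peroxiredoxins, the enzymes that remove most hydrogen peroxide, and sulfiredoxin (Srxn1) repairs over-oxidised peroxiredoxins. Txnrd1 was at 291, 289.5 and 313 CPM in control, 347, 380.4 and 599.9 CPM in CIA and 300.2, 261 and 306 CPM with luteolin, with the CIA libraries above the other 6. It rose in CIA (0.57 ± 0.17, adjusted p = 0.0175) and fell with luteolin (-0.62 ± 0.17, adjusted p = 0.0132). Its rise was lost without control replicate 1 (0.55, adjusted p = 0.0576) or 2 (0.55, adjusted p = 0.0582), and its fall without luteolin replicate 2 (-0.49, adjusted p = 0.0766). Txn1 rose from 13.1, 12.6 and 11.6 CPM in control to 21.0, 22.2 and 28.6 CPM in CIA (0.94 ± 0.13, adjusted p = 0.000242). At 21.6, 18.7 and 21.7 CPM with luteolin it overlapped the CIA libraries and did not pass (adjusted p = 0.200). Srxn1 passed in no comparison (log2 fold changes -0.10, 0.012 and -0.089), and its CIA libraries, at 26.7, 41.4 and 55.9 CPM, spanned the range of the other 6.

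Of the 4 peroxiredoxins, Prdx5 and Prdx6 rose in CIA and Prdx2 rose with luteolin. The called shares were 50% and 25%, beside 51.1% and 47.3% of all genes tested. Prdx6, a 1-cysteine peroxiredoxin that also acts on lipids, rose in CIA from 22.4, 20.7 and 23.6 CPM to 42.7, 56.5 and 134 CPM (1.80 ± 0.35, adjusted p = 0.00170), of which 1.16 (adjusted p = 3.69e-05) was left without CIA replicate 3. At 66.4, 50.6 and 72.4 CPM with luteolin, its change from CIA did not pass (adjusted p = 0.493). Prdx5, found in mitochondria and peroxisomes, rose from 150.1, 146 and 139 CPM to 276, 395 and 481 CPM in CIA (1.40 ± 0.17, adjusted p = 0.000112) and did not pass between CIA and luteolin, at 445, 360.3 and 432 CPM. Prdx1, the abundant cytosolic form, was at 295, 301 and 302 CPM in control, 303, 365 and 603 CPM in CIA and 504, 415 and 549 CPM with luteolin. All CIA and luteolin libraries were above control, though CIA replicate 1 only narrowly, and the rise in CIA did not pass (0.50 ± 0.21, adjusted p = 0.0655). It passed without CIA replicate 1 (0.69, adjusted p = 0.00554) or by DESeq2 (0.52, adjusted p = 0.0480). It also passed without a filter on low counts (adjusted p = 2.13e-06), though the log2 fold change of 0.49 was close to that of the main fit. Against CIA, Prdx1 passed with luteolin only without CIA replicate 3 among the libraries left out in turn (0.55, adjusted p = 0.00116), and also without a filter on low counts (0.24, adjusted p = 0.0482). Prdx2, the abundant form of erythrocytes, did not pass in CIA (-0.19 ± 0.11, adjusted p = 0.171), and it rose with luteolin from 10.6, 10.8 and 9.02 CPM to 16.3, 14.0 and 14.3 CPM (0.55 ± 0.11, adjusted p = 0.00212), where the erythroid markers were at 1.22 to 1.81 CPM against 5.78 to 6.21 CPM in CIA. Prdx2 shares 11.5% of its exonic bases and Prdx5 19.1% with other genes. The total count of the largest overlapping gene equalled 94.8% of that of Prdx2 and 10.1% of that of Prdx5, so part of these counts may be shared.

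Both glutathione peroxidases were highest with luteolin. Gpx1 (chromosome 9, 108216102 to 108217542), the selenoprotein that reduces hydrogen peroxide with glutathione, was at 66.6, 79.2 and 79.6 CPM in control, 106, 106 and 116 CPM in CIA and 304, 318 and 323 CPM with luteolin. The 3 groups did not overlap, with a rise of 0.54 ± 0.09 in CIA (adjusted p = 0.000567) and a further 1.53 ± 0.09 with luteolin (adjusted p = 5.18e-07), a 2.88-fold difference. A gene model on the opposite strand covers 84% of the exonic bases of Gpx1 and held 55510 counts over the 9 libraries against 55555 for Gpx1, so RNA from the 2 strands cannot be told apart. Gpx4, which protects membrane lipids from peroxidation and shares no exonic base with another gene, was at 36.7, 38.2 and 34.5 CPM in control, 32.1, 34.1 and 36.5 CPM in CIA and 57.0, 53.6 and 52.0 CPM with luteolin. It did not pass in CIA (-0.090 ± 0.08, adjusted p = 0.393), where CIA and control overlapped, and rose with luteolin above all other libraries (0.66 ± 0.08, adjusted p = 0.000126). In the same luteolin libraries the macrophage markers summed to 478 to 565 CPM, against 113 to 142 CPM in CIA and 186 to 243 CPM in control. The sums of the cell division genes, the mast cell and basophil markers and the plasma cell markers were also highest with luteolin, and that of the erythroid markers was lowest. The part of any of these lists in the rise of Gpx4 was not tested.

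Catalase and the cytosolic dismutase were highest in CIA, and the mitochondrial dismutase with luteolin. Cat, the peroxisomal enzyme that splits hydrogen peroxide, was at 109, 108 and 115 CPM in control, 143, 164 and 197 CPM in CIA and 100.1, 97.7 and 99.8 CPM with luteolin. The CIA libraries were above the other 6, with a rise of 0.60 ± 0.10 (adjusted p = 0.000951) and a change with luteolin of -0.76 ± 0.11 (adjusted p = 0.000219). Sod1, the cytosolic copper-zinc dismutase, was likewise highest in CIA, with 109, 117 and 109.6 CPM in control, 132, 146 and 189 CPM in CIA and 118, 110.2 and 113 CPM with luteolin (0.47 ± 0.12 and -0.45 ± 0.12 in the 2 comparisons). The fall of Sod1 did not pass without luteolin replicate 2 (-0.38, adjusted p = 0.0584). Sod2, the mitochondrial manganese enzyme and an NF-kB target, did not pass in CIA (0.076 ± 0.13, adjusted p = 0.647), where libraries of both groups overlapped. It rose with luteolin from 236, 264 and 330.5 CPM to 418, 370.5 and 427 CPM (0.55 ± 0.13, adjusted p = 0.00559), again without overlap.

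The 6 genes that supply NADPH, the electron source of both recycling systems, were all called in CIA, 5 higher and 1, the scarce Me1, narrowly lower. Of all genes tested 51.1% were called, 26.6% higher and 24.5% lower. G6pdx, which encodes the first enzyme of the pentose phosphate pathway, was at 83.6, 76.9 and 82.3 CPM in control, 141, 196 and 285 CPM in CIA and 216, 197 and 228 CPM with luteolin. It rose by 1.36 ± 0.20 in CIA (adjusted p = 0.000344) and overlapped between CIA and luteolin, where only leaving out CIA replicate 3 gave a call among the libraries left out in turn (0.34, adjusted p = 0.0287). G6pdx shares 13.6% of its exonic bases with Ikbkg, a gene whose total count equalled 105% of that of G6pdx. Pgd, the next NADPH-producing enzyme of that pathway, rose by 1.17 ± 0.17 and did not pass with luteolin (-0.22 ± 0.17, adjusted p = 0.302; -0.41, adjusted p = 0.00710, without CIA replicate 1). In the non-oxidative branch, Taldo1, transaldolase, rose by 0.85 ± 0.12 in CIA and changed by -0.59 ± 0.12 with luteolin (adjusted p = 0.00296). Tkt, transketolase, rose by 0.62 ± 0.13 and did not pass with luteolin (0.21 ± 0.13, adjusted p = 0.206), except without CIA replicate 3 (0.36, adjusted p = 0.00778).

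The cytosolic NADPH enzymes outside the pentose phosphate pathway were highest with luteolin. Idh1, isocitrate dehydrogenase 1 (chromosome 1, 65197775 to 65225659), was at 24.9, 19.1 and 18.5 CPM in control, 33.4, 34.6 and 58.7 CPM in CIA and 113, 83.7 and 111 CPM with luteolin. The 3 groups did not overlap, and Idh1 rose by 1.02 ± 0.22 in CIA (adjusted p = 0.00314) and by 1.28 ± 0.22 with luteolin against CIA (adjusted p = 0.000794). Me1, malic enzyme 1, was scarce, with 56, 54 and 24 counts in control, 12, 14 and 28 in CIA and 108, 78 and 118 with luteolin. It fell in CIA (-1.12 ± 0.42, adjusted p = 0.0445) despite overlapping libraries, a call that was lost without control replicate 1 (-0.98), control replicate 2 (-0.998), CIA replicate 1 (-0.86) or CIA replicate 2 (-0.95) and when the luteolin libraries were left out of the fit (-1.10). With luteolin each library was above each CIA library (2.28 ± 0.40, adjusted p = 0.00103).

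Of the 34 genes Nqo1 had the largest fall with luteolin. Nqo1 (chromosome 8, 108114857 to 108129838), the quinone reductase, was at 6.20, 5.58 and 8.16 CPM in control, 12.9, 19.6 and 24.7 CPM in CIA and 5.19, 4.88 and 5.90 CPM with luteolin. CIA stood apart from both other groups, a rise of 1.52 ± 0.22 over control (adjusted p = 0.000360) and a change of -1.84 ± 0.23 with luteolin (adjusted p = 0.000105), which is 3.57-fold lower. Osgin1, an oxidative stress-induced growth inhibitor, was also highest in CIA, at 7.22, 6.42 and 6.80 CPM in control, 16, 21.5 and 33.9 CPM in CIA and 8.13, 8.35 and 8.10 CPM with luteolin. Its log2 fold changes were 1.80 ± 0.23 (adjusted p = 0.000147) in CIA and -1.54 ± 0.22 (adjusted p = 0.000302) with luteolin, and the 3 luteolin libraries lay within 8.10 to 8.35 CPM. Abcc1, the pump that exports glutathione conjugates, was at 85.3, 86.3 and 86.5 CPM in control, 167, 238 and 328 CPM in CIA and 133, 117 and 141 CPM with luteolin. It rose by 1.5 ± 0.19 in CIA (adjusted p = 0.000166) and changed by -0.91 ± 0.19 with luteolin (adjusted p = 0.00288), where its libraries lay between those of control and CIA. Blvrb, which reduces biliverdin and flavins, rose in CIA by 0.37 ± 0.10 (adjusted p = 0.0125; 0.32, adjusted p = 0.0564, without control replicate 1). Cbr1, a carbonyl reductase, passed in neither comparison (adjusted p = 0.137 and 0.147).

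**Figure D4:**
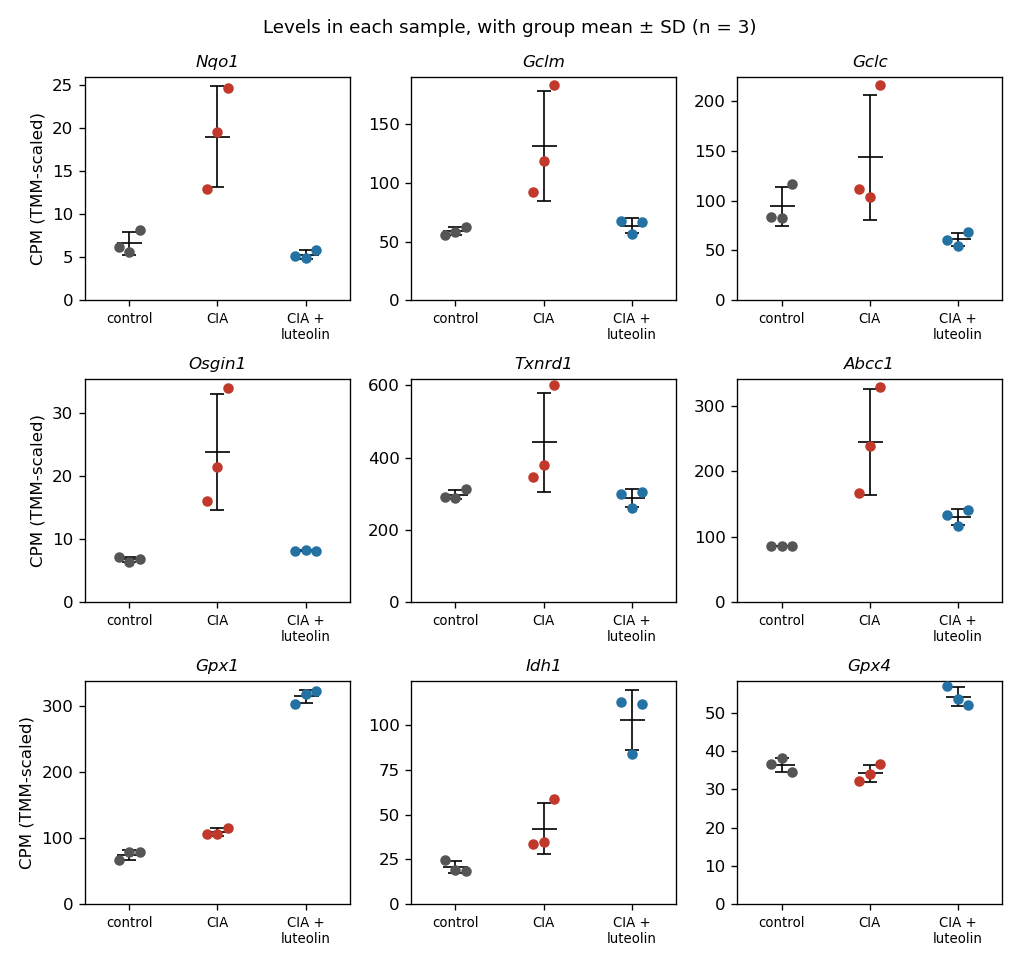
CPM in each library (points, vertical axes from 0) with the group mean ± SD (n = 3) for 9 genes. Nqo1, Gclm, Osgin1, Txnrd1 and Abcc1 were highest in the 3 CIA libraries, Gclc was lowest with luteolin, and Gpx1, Idh1 and Gpx4 were highest in the 3 luteolin libraries.

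The 3 glutathione S-transferases, which couple glutathione to electrophiles, all rose in CIA, where 26.6% of all genes tested were called higher. Gsta4, which acts on lipid aldehydes, had the largest log2 fold change of the 34 genes, 3.75 ± 0.44 (adjusted p = 9.62e-05), but from few reads, with 8, 4 and 6 counts in control, 46, 74 and 100 in CIA and 26, 34 and 22 with luteolin. All 9 of its counts were even, as were those of Me1. Even counts made up 45.8% of the 306 counts of all members and 61.3% of counts above 0 over all genes. Whether the 2 reads of a pair were counted apart is not given in the sources used here. The groups of Gsta4 did not overlap, and it fell with luteolin against CIA (-1.65 ± 0.36, adjusted p = 0.00361). Gstm1, a member of a cluster of similar genes among which reads may have been divided, was at 161, 160.4 and 165 CPM in control, 172, 251 and 417 CPM in CIA and 181, 183 and 215 CPM with luteolin. Its rise in CIA (0.79 ± 0.24, adjusted p = 0.0196) was lost without any 1 of the control replicates (0.77 to 0.80), and its change with luteolin did not pass (-0.54 ± 0.24, adjusted p = 0.0909; -0.78, adjusted p = 0.00227, without CIA replicate 1). Mgst1, the microsomal transferase, which is abundant in granulocyte precursors, was at 8.27, 9.85 and 8.89 CPM in control, 14.7, 29.0 and 25.9 CPM in CIA and 33.0, 32.8 and 34.5 CPM with luteolin. It rose in CIA (1.36 ± 0.21, adjusted p = 0.000436) and passed narrowly with luteolin (0.53 ± 0.20, adjusted p = 0.0493), a call lost without luteolin replicate 1 (0.55, adjusted p = 0.0959), 2 (0.60, adjusted p = 0.0681) or 3 (0.52, adjusted p = 0.110), with upper-quartile scaling (0.47, adjusted p = 0.0715) and with only the 6 libraries (0.57, adjusted p = 0.0727). The granule gene Mpo, which marks those precursors, was at 3.85, 1.59 and 1.61 CPM in control, 1.92, 1.26 and 1.45 CPM in CIA and 249, 293 and 240.3 CPM with luteolin. Its mean was thus not higher in CIA than in control (1.54 against 2.35 CPM), where Mgst1 rose. The part of such precursors in the changes of Mgst1 was not tested.

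**Figure D5:**
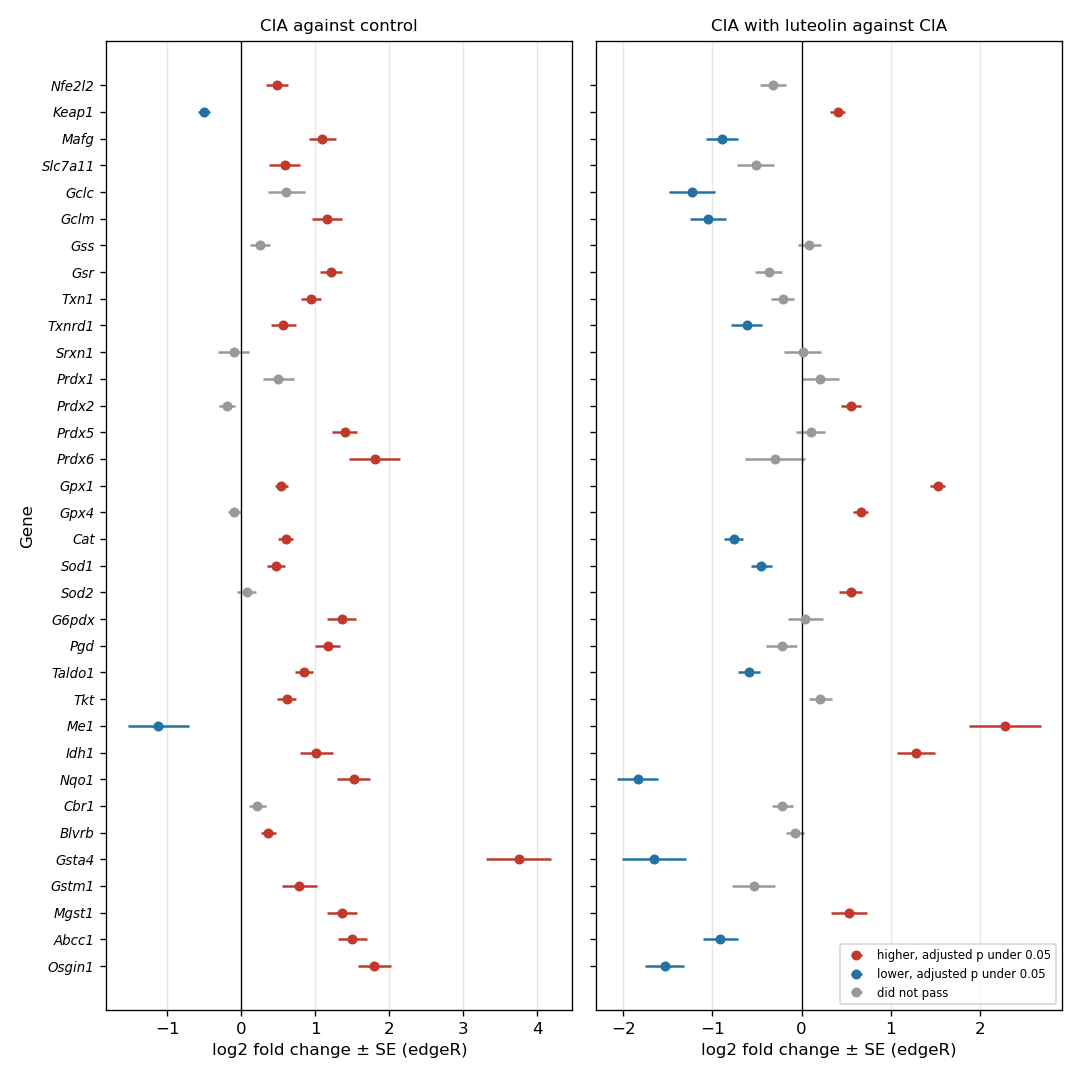
Log2 fold change ± SE from edgeR (horizontal axes) for the 34 genes (rows) in CIA against control (left) and in CIA with luteolin against CIA (right), coloured by whether the adjusted p was under 0.05. On the left 24 genes lie to the right of 0 with a call and 2 to the left, and on the right 8 are called higher and 11 lower.

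Set against control, the luteolin libraries had 18 members higher and none called lower by edgeR, beside 24.2% and 20.8% of all genes tested in the same directions (45% called in all). The luteolin and control libraries did not overlap for 27 members, 24 higher and 3 lower, beside 63.3% of all genes (32.3% higher, 30.9% lower). At an unadjusted p of 0.05, 1 member was lower, Gclc (-0.62 ± 0.25, adjusted p = 0.0680), which was called without a filter on low counts (-0.60, adjusted p = 4.53e-07), and DESeq2 called no member lower. The largest rises were in Idh1 (2.30 ± 0.22), Gsta4 (2.10 ± 0.46), Gpx1 (2.07 ± 0.09), Mgst1 (1.89 ± 0.21), Prdx5 (1.51 ± 0.17), Prdx6 (1.51 ± 0.34) and G6pdx (1.40 ± 0.20). Nqo1, Gclm, Txnrd1 and Osgin1, by contrast, did not pass, at -0.32 ± 0.23 (adjusted p = 0.286) for Nqo1, 0.11 ± 0.20 (adjusted p = 0.700) for Gclm, -0.043 ± 0.17 (adjusted p = 0.861) for Txnrd1 and 0.27 ± 0.23 (adjusted p = 0.367) for Osgin1. A p that misses the threshold does not show that these levels were equal. In a fit without the uneven CIA libraries 24 members were called higher and 2 lower, Gclc (-0.62, adjusted p = 0.000424) and Cat (-0.16, adjusted p = 0.0235). Osgin1 was among those higher (0.27, adjusted p = 0.0451). Some calls were lost on leaving out 1 library. For Prdx1 (0.71) and Abcc1 (0.60) this was so for any control replicate and for luteolin replicates 1 and 3, with the lowest values, 0.62 and 0.54, without luteolin replicate 3. The call of Prdx2 (0.36) was lost without control replicate 1 or 2 or luteolin replicate 1 (lowest 0.29), that of Blvrb (0.29) without control replicate 1 or 3 or luteolin replicate 1 or 3 (lowest 0.25), and that of Me1 (1.16) without control replicate 3 or luteolin replicate 1 or 3 (lowest 0.93).

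The CIA libraries differed from one another more than those of the other groups. The coefficient of variation of the members had a median of 30.0% in CIA, 5.26% in control and 7.25% with luteolin, beside 18.9%, 10.4% and 8.72% over all genes tested. CIA replicate 3 had the highest of the 3 CIA values for 29 of the 34 genes (85.3%), against 39.2% of all genes, and CIA replicate 1 the lowest for 31 (91.2%), against 38.8%. Keap1 and Prdx2 went the other way, with their lowest value in CIA replicate 3, at 27.7 and 9.02 CPM. Between CIA replicates 1 and 3 neutrophil markers went from 7077 to 11870 CPM and B cell markers from 1589 to 285 CPM. The part of these markers in the spread of the members was not tested.

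Further genes of the pathway were taken from additional lists. Of 11 other known NRF2 targets, 7 rose and 1 fell in CIA, and with luteolin 2 rose and 9 did not pass. The called shares were 72.7% and 18.2%, beside 51.1% and 47.3% of all genes tested. Hmox1, heme oxygenase 1, was at 286, 309 and 378 CPM in control, 439.9, 552 and 865 CPM in CIA and 495, 381 and 569.6 CPM with luteolin. It rose in CIA (0.93 ± 0.23, adjusted p = 0.00635), and with luteolin its libraries overlapped those of CIA. Ptgr1, a reductase of lipid aldehydes and leukotriene B4, rose by 1.88 ± 0.34 in CIA and did not pass with luteolin (-0.74 ± 0.33, adjusted p = 0.0856). Ephx1, a detoxifying epoxide hydrolase, fell from 177, 186 and 171 CPM to 41.4, 25.4 and 11.4 CPM in CIA (-2.77 ± 0.35, adjusted p = 0.000156). The B cell markers were also lower in CIA, with the same order of the 3 CIA libraries. In CIA replicate 1, however, they still summed to 1589 CPM, against 1991 to 2061 CPM in control. With luteolin they summed to 416 to 516 CPM, and Ephx1 was at 30.9, 43.3 and 32.8 CPM. The part of the B cell markers in the fall of Ephx1 was not tested. Slc48a1, the lysosomal heme transporter of macrophages, was at 18.0, 17.7 and 21.9 CPM in CIA and 42.6, 40.0 and 42.1 CPM with luteolin (1.11 ± 0.10, adjusted p = 1.56e-05).

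Of 18 other glutathione genes tested, 6 rose and 3 fell in CIA, and 3 rose and 4 fell with luteolin, called shares of 50% and 38.9% beside 51.1% and 47.3% of all genes tested. Ggt1, which breaks down extracellular glutathione, was at 3.17, 3.97 and 2.81 CPM in control, 10.2, 13.9 and 10.7 CPM in CIA and 2.92, 3.37 and 3.86 CPM with luteolin, with CIA apart from both other groups. Gsto1, an omega-class transferase, was lowest in CIA and highest with luteolin, at 25.5, 27.5 and 21.9 CPM in control, 11.6, 7.63 and 8.33 CPM in CIA and 36.3, 36.5 and 38.9 CPM with luteolin. Of 17 other thioredoxin, peroxide and superoxide genes, 4 rose and 6 fell in CIA and 5 rose and 5 fell with luteolin, or 58.8% called in each, near the same backgrounds. Glrx, glutaredoxin, rose from 4.45, 6.24 and 6.86 CPM to 19.7, 27.3 and 36.0 CPM in CIA (2.25 ± 0.22, adjusted p = 3.34e-05). Prdx4, the peroxiredoxin of the endoplasmic reticulum, rose with luteolin from 3.06, 2.69 and 2.31 CPM to 7.16, 7.29 and 6.88 CPM (1.40 ± 0.15, adjusted p = 3.84e-05). Of 9 other NADPH genes, 3 rose and 2 fell in CIA, with the NAD kinase gene Nadk at 0.86 ± 0.12, and 3 rose and 2 fell with luteolin, with the mitochondrial enzyme gene Idh2 at 1.22 ± 0.14, so 55.6% were called in each, also near the background.

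Enzymes that produce oxidants were tested beside those that remove them. Of 9 genes, 5 rose and 3 fell in CIA, and 5 rose and 2 fell with luteolin. The called shares were 88.9% and 77.8%, beside 51.1% and 47.3% of all genes tested. Cybb, the catalytic subunit of the phagocyte NADPH oxidase, was at 651, 639 and 638 CPM in control, 326, 276 and 318 CPM in CIA and 1670.3, 1328 and 1742 CPM with luteolin. It fell in CIA (-1.07 ± 0.10, adjusted p = 3.23e-05) and rose with luteolin (2.37 ± 0.11, adjusted p = 1.32e-07), and no 2 groups overlapped. Nos2, the inducible nitric oxide synthase, rose in CIA from 3.87, 3.76 and 7.21 CPM to 52.8, 79.9 and 148 CPM (4.25 ± 0.45, adjusted p = 5.15e-05). Mpo, the myeloperoxidase of neutrophil precursors, rose with luteolin by 7.39 ± 0.33 (adjusted p = 1.09e-07). In the same libraries the macrophage markers and the neutrophil markers Ngp, Ltf and Camp were also highest, while 7 other neutrophil markers were lower than in CIA.

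On a scale that allows genes to be compared, CPM divided by the exonic length in kilobases (RPKM), the mean levels of the members ran from 0.130 (Gsta4) to 110.0 (Gstm1) in control. Gstm1, Prdx1 and Prdx5 held the top 3 places in control, at 110.0, 98.4 and 67.8 RPKM, and also in CIA, at 190.2, 139 and 179 RPKM. With luteolin Gpx1 came first at 218 RPKM, ahead of Prdx5 at 193, Prdx1 at 161 and Gstm1 at 131 RPKM, whereas it had been the fifth in control at 52.1 and the sixth in CIA at 75.9 RPKM. Nqo1, at 4.28, 12.3 and 3.43 RPKM in control, CIA and luteolin, was among the lower members in every group. Of the 34 genes 24 shared no exonic base with another gene in the table, 6 shared over 10% and 1, Gpx1, over 25%.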

How the data were processed

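The deposited table holds raw counts of reads per gene for 9 libraries, deposited by the authors. The submitters' processing notes list Trimmomatic 0.36 and featureCounts (Subread 1.5.1). For mapping, the labels' protocols give software spelled STRA, version 2.5.3a. Those protocols name CHOK1GS, a hamster genome, whereas the processing notes name mm39, given here for the table's coordinates. The strand setting and annotation release are not given in the sources used here, so antisense genes cannot be told apart. The exonic lengths, in bases, are the table's own, per the file headers.

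Counts were tested with edgeR 4.0.16 in R 4.3.3 (filterByExpr, TMM, glmQLFit with 1 mean per group over all 9 libraries, glmQLFTest, 2-sided, Benjamini-Hochberg over 19348 genes, threshold 0.05). SE is the size of the log2 fold change over the square root of F. The procedure was tested on simulated data. Alternatives were other scalings, DESeq2 1.42.0, other filters, fits of 6 libraries and the replicate number as a block. Each library of the 2 groups compared was also left out in turn. The members and lists were chosen with earlier results of these data known. All members are named, and of each further list up to 4 genes with the smallest p in each of the first 2 comparisons. Libraries of one group always differed beyond sampling noise (chi-square per degree of freedom of at least 5.51).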

Additional observations from a re-analysis of the deposited data

How the results depend on the processing

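Of 1326 values of members under alternatives, 1214 kept their direction and call, 51 lost a call, 41 gained one and 20 changed sign, none of them called in either setting. The number of members higher ranged over other settings from 23 to 26 in CIA against control (24 as reported), 7 to 9 with luteolin against CIA (8) and 17 to 24 with luteolin against control (18). Leaving out 1 library gave 19 to 27, 7 to 11 and 13 to 18. Members lower with luteolin against CIA numbered 11 to 15 (11 as reported) and 9 to 16 on leaving out 1 library. Members lower in CIA were 2, but 1 with only the 6 samples compared and 1 to 2 on leaving out 1 library. Members lower with luteolin against control were 0, but 1 with no filter and 2 with only the 6 samples compared. They were 0 on leaving out any 1 library of these 2 groups, and single CIA libraries were not left out for this comparison. Calls among all genes stayed within 1.5 times of those reported. Replicate numbers are shared between the groups, and the labels name no pairing. In all 9 same-numbered pairs of libraries the deviations correlated positively, though weakly (r from 0.00654 to 0.143). The 18 other pairs had r from -0.177 to 0.0919, and CIA replicate 1 correlated better with luteolin replicate 2 than with its own number. The main fit leaves out any effect shared by replicate number. With the replicate block the genes called went from 9886 to 9794, 9148 to 9148 and 8708 to 8764. With this block 1 member was lower in CIA, since Me1 did not pass (-1.19, adjusted p = 0.0518), and 1, Gclc (-0.60, adjusted p = 0.0105), with luteolin against control. In the same fit Gclc passed in CIA (0.56, adjusted p = 0.0128), Slc7a11 passed with luteolin against CIA (-0.48, adjusted p = 0.0459) and Blvrb did not pass with luteolin against control (0.30). Nfe2l2, Gsr and Gstm1 also passed with luteolin against CIA with no filter, and Gsr with upper-quartile scaling. Log2 fold changes that gained a call with no filter hardly moved. That of Prdx1 in CIA went from 0.50 to 0.49, while its adjusted p went from 0.0655 to 2.13e-06. Prdx2 and Blvrb lost their calls with luteolin against control (adjusted p = 0.0648 and 0.102). The small p-values of this setting therefore did not come from larger changes. Its estimate of spread was not compared with that of the main fit. Changes of sign under upper-quartile scaling were Srxn1 -0.051 and G6pdx -0.019 with luteolin against CIA, and Sod1 -0.031 and Cbr1 -0.049 against control. Values that changed sign on leaving out 1 library ranged from -0.38 to 0.13 for Srxn1 and from -0.067 to 0.17 for Sod2 in CIA against control. With luteolin against CIA they ranged from -0.034 to 0.21 for Gss, from -0.22 to 0.29 for Srxn1, from -0.080 to 0.29 for Prdx5, from -0.58 to 0.34 for Prdx6, from -0.16 to 0.34 for G6pdx and from -0.10 to 0.028 for Blvrb. With luteolin against control they ranged from -0.024 to 0.25 for Slc7a11, from -0.081 to 0.082 for Txnrd1, from -0.18 to 0.0068 for Srxn1, from -0.0035 to 0.098 for Sod1 and from -0.028 to 0.052 for Cbr1. The cause was not tested. Depth limits the precision of Gsta4 and Me1, which had few counts.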
